A study of Homo sapiens with 6 samples.

Results

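ERBB2, the gene of the receptor tyrosine kinase HER2, is described here with 9 genes that lie beside it in chromosome band 17q12 and just past it, in LNCaP cells and in an enzalutamide-resistant derivative. The 10 genes (MED1, CDK12, STARD3, TCAP, PGAP3, ERBB2, MIEN1, GRB7, ORMDL3 and PSMD3) were taken by symbol from the deposited table of 35554 genes, and all 10 were among the 19711 genes with enough counts to be tested. The set was built because the ERBB2 level was already known to be higher in the resistant line, so that the neighbours could be read in order of position. The values that compare both lines at these 10 genes are therefore a description. They are read off a fit across all genes, no p-value is given for them, and a count of these genes past its threshold is no evidence for their rise.

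LNCaP is an established human line from a metastatic prostate carcinoma whose growth depends on androgens. Enzalutamide blocks androgen signalling. The resistant line, LNCaP-enzaR, was derived from parental LNCaP by continuous culture with the drug and was then kept on a lower concentration, according to the study's methods. RNA of 3 flasks of each line was sequenced (n = 3 libraries per line). The labels name no treatment of the parental cells, and whether drug was in the medium at harvest is not given in the sources used here. Each line is 1 culture history, so that the spread between flasks does not measure how much a second resistant derivative would differ.

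HER2 binds no known ligand of its own and signals as the partner of other ErbB receptors, through adaptor proteins and the PI3K and MAPK pathways. In a subset of breast and gastric cancers its gene is amplified together with a stretch of 17q12, and GRB7, MIEN1, PGAP3 and STARD3 are then usually overexpressed with it. ORMDL3 and PSMD3 lie further along the chromosome, in a segment with the gasdermin genes that is best known for asthma risk variants. Copy number was not measured in these samples. In bulk RNA, fewer cells that express a gene and less RNA of it per cell cannot be told apart.

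The libraries held 77759122 to 98616465 counts. Levels are given as CPM, which are counts scaled to 1000000 per library after TMM scaling, and differences as the log2 fold change of LNCaP-enzaR over parental with its standard error (SE). A gene was past the threshold at a fold change of at least 1.5 and an adjusted p of at most 0.05 (edgeR quasi-likelihood test, Benjamini-Hochberg over the genes tested). The prostate luminal markers KRT8, KRT18, EPCAM, HOXB13 and FOLH1 were expressed, with mean levels from 94.8 CPM (EPCAM) to 893.8 CPM (FOLH1) in parental and from 126.0 CPM (EPCAM) to 886.1 CPM (KRT8) in LNCaP-enzaR. Their levels were not stable between the lines: of the 6 luminal markers listed, 1 was past the threshold higher and 3 lower. Of 10 markers of other cell types, 5 were tested, with summed levels of 22.7 to 25.5 and 22.9 to 24.4 CPM. Within that sum COL1A1 fell from 13.4 to 4.29 CPM, while ACTA2 rose from 2.00 to 8.71 CPM and VIM from 2.85 to 6.41 CPM (means, n = 3 each), and their part in the results was not tested. The leukocyte marker PTPRC and the endothelial marker PECAM1 had at most 5 and 4 counts in any library. Mitochondrial genes took 6.72 to 7.06% of the counts in parental LNCaP and 14.7 to 15.5% in LNCaP-enzaR, and the log2 fold change of ERBB2 was 1.49 both with and without them. Replicate 1 of LNCaP-enzaR stood apart from the other two: its chi-square per degree of freedom over genes was 39.1 and 31.2 against them, while the other pairs within a line gave 5.70 to 9.48. The log2 fold changes of STARD3, PGAP3, ORMDL3 and PSMD3 are also given without it below.

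PGAP3, ERBB2, MIEN1 and ORMDL3 rose in LNCaP-enzaR, by 2.17- to 2.81-fold. The levels of MED1 and CDK12, at the proximal end of the set, were lower in every resistant library but did not reach a 1.5-fold change. STARD3 stood slightly higher, whereas GRB7 and PSMD3 kept nearly equal means in both lines and TCAP was barely expressed. In all, 4 of the 10 genes were past the threshold, all of them higher. Over all genes tested, 42.7% were past it, 23.3% higher and 19.5% lower. The libraries of both lines did not overlap at 7 of the 10 genes (5 higher and 2 lower in LNCaP-enzaR), which was the case at 70.6% of all genes tested.

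**Figure D1:**
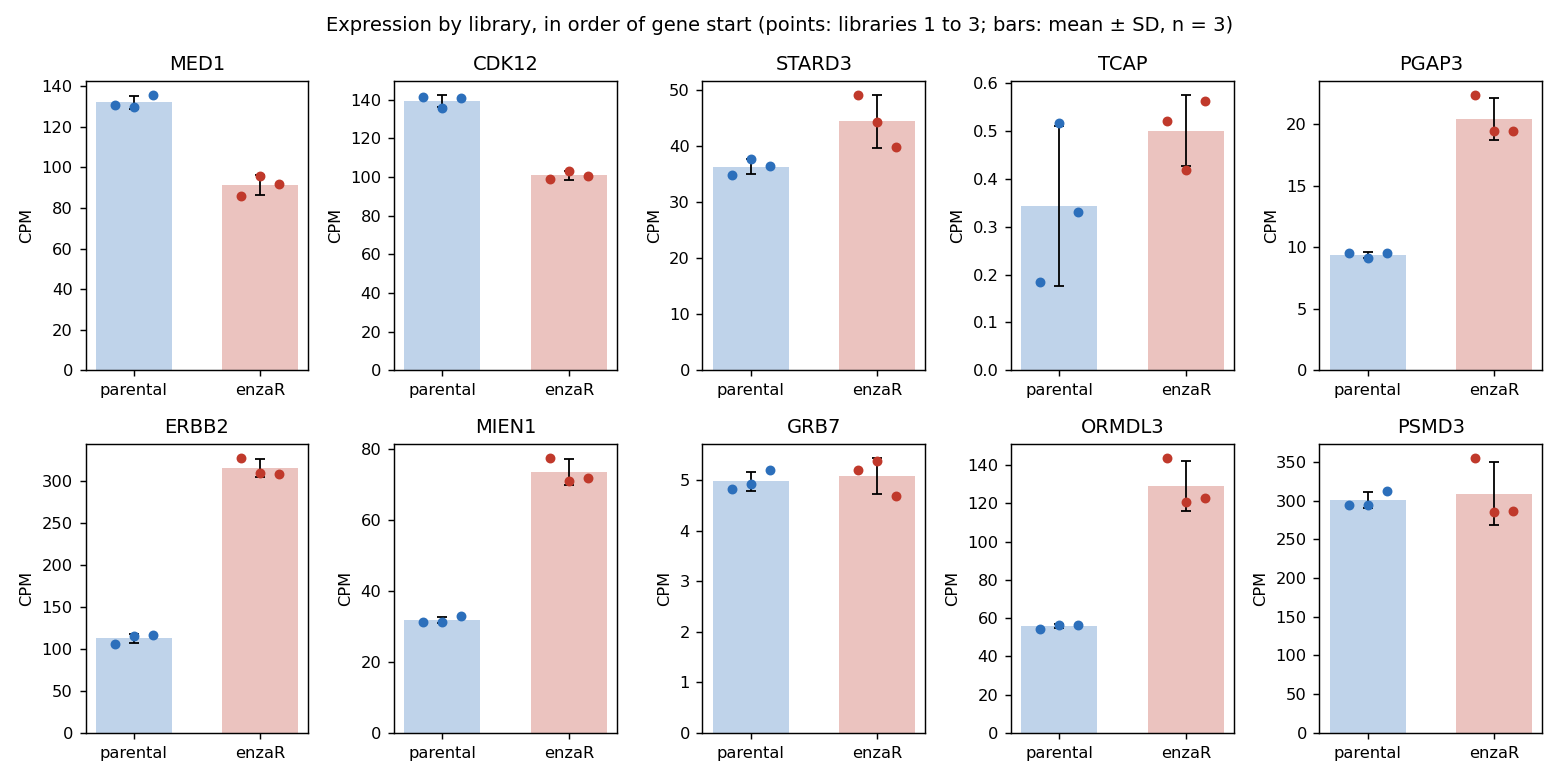
Expression of the 10 genes in CPM (vertical axes, each from 0) in the 3 parental and the 3 LNCaP-enzaR libraries, in order of position on chromosome 17. Bars give the mean and error bars the SD (n = 3), and points are libraries 1 to 3 from left to right. The groups are apart and higher at PGAP3, ERBB2, MIEN1, ORMDL3 and STARD3, apart and lower at MED1 and CDK12, and overlap at TCAP, GRB7 and PSMD3.

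ERBB2 (ENSG00000141736.14) occupies chr17:39687914-39730426 on the plus strand of GRCh38. It measured 106.0, 115.2 and 116.0 CPM in the parental libraries and 327.8, 309.9 and 308.6 CPM in LNCaP-enzaR. The lowest resistant library thus held well over the level of the highest parental one. The means were 112.4 ± 5.58 and 315.4 ± 10.7 CPM (SD, n = 3 each), and the log2 fold change was 1.49 (SE 0.057), or 2.81-fold. With 9114 to 30619 counts per library, ERBB2 was among the better measured genes of the set.

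Both genes that overlap ERBB2 rose with it. PGAP3, which encodes an enzyme of the Golgi that remodels the lipid of GPI anchors, lies on the minus strand at chr17:39671122-39696797. Its level was 9.53, 9.10 and 9.53 CPM in parental LNCaP and 22.4, 19.4 and 19.5 CPM in LNCaP-enzaR. The log2 fold change was 1.12 (SE 0.082), or 1.06 without replicate 1 of LNCaP-enzaR. MIEN1, a small membrane-anchored protein linked to cell migration, is encoded on the minus strand at chr17:39728496-39730532, tail to tail with ERBB2. Its level was 31.3, 31.3 and 32.9 CPM in the parental libraries and 77.5, 70.8 and 71.7 CPM in the resistant ones, a log2 fold change of 1.20 (SE 0.062). Neither gene had a library near those of the other line. Summed, PGAP3, ERBB2 and MIEN1 went from 153.6 ± 6.06 to 409.2 ± 16.0 CPM, which is 2.66-fold.

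These 3 genes share exonic bases on opposite strands, and the strand setting of the counting is not given in the sources used here. In the GENCODE v44 annotation, 571 exonic bases are common to ERBB2 and MIEN1, which is 28.0% of the exonic length of MIEN1 and 5.53% of that of ERBB2. A further 144 bases are common to ERBB2 and PGAP3, or 3.98% of PGAP3. Reads from those bases cannot be told apart without strand, so the MIEN1 value in particular may carry ERBB2 reads or lack them.

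PGAP3 and ERBB2 also face each other head to head. Their RefSeq starts on GRCh38.p14, 39688057 for PGAP3 on the minus strand and 39688094 for ERBB2 on the plus strand, are separated by 36 bases. From that interval 30 bases, chr17:39688062-39688091 on the plus strand, are shown because a single stretch lies in front of both genes. Capitals mark matches to the ETS core letters CCGGAA, searched on both strands.
PGAP3-ERBB2 interval: cttccacTTCCGGagtaaCCGGAAgttcct
The interval holds 2 matches in opposite orientation, where 14.5% of the 34788 RefSeq windows of 250 bases before a start hold at least 1. GENCODE v44 lists 22 ERBB2 transcripts with 21 distinct starts, and the one marked canonical begins at 39700064, downstream of this interval. The gene counts do not tell which start was used. A match is a description of letters and not of a bound site.

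The other stretches shown lie just before the starts of MIEN1 and ORMDL3, which rose, and of MED1 and CDK12, which had lower levels. They come from RefSeq on GRCh38.p14 and run 5' to 3' on the strand of each gene up to its start, with capitals for the GC box letters GGGCGG on either strand. The positions are chr17:39730533-39730782 for MIEN1, chr17:39927602-39927731 for ORMDL3, chr17:39451264-39451513 for MED1 and chr17:39461236-39461485 for CDK12.
MIEN1: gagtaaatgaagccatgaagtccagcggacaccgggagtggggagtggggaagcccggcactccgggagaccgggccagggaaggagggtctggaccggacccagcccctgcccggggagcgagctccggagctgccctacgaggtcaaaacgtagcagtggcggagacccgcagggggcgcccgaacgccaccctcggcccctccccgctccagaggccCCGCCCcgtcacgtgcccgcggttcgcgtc
ORMDL3: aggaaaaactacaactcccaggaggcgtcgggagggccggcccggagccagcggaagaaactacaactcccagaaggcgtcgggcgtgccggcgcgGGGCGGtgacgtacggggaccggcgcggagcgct
MED1: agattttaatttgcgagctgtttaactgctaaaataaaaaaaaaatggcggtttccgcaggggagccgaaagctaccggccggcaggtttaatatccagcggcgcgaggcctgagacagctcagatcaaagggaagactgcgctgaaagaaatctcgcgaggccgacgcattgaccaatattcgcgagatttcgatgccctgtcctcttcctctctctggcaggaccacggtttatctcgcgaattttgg
CDK12: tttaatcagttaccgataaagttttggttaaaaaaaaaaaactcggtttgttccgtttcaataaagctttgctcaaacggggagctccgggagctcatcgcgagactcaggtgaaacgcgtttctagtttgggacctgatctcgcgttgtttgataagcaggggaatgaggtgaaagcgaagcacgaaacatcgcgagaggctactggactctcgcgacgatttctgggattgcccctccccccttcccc
A GC box was found once before MIEN1 and once before the ORMDL3 start shown, and none was found before MED1 or CDK12. The windows did not divide the genes by this: the one of PGAP3 held 1 GC box and that of ERBB2 held 0, and the windows of the other two ORMDL3 starts in RefSeq held 1 and 2. Of all 34788 windows, 42.6% hold at least 1. No ETS core was found in the 250 bases before these 4 starts, nor the AP-2 letters GCCNNNGGC, which 19.8% of the windows hold. The window of STARD3 held 1 ETS core, 2 GC boxes and 1 AP-2 match, and that of PSMD3 held 1 AP-2 match. No window was used for GRB7 and TCAP.

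GRB7 follows MIEN1 after 7394 bases, at chr17:39737927-39747291 on the plus strand, and encodes an adaptor that binds phosphorylated HER2 through its SH2 domain. Its level was 4.83, 4.93 and 5.19 CPM in parental LNCaP and 5.20, 5.38 and 4.69 CPM in LNCaP-enzaR. The resistant libraries lay on both sides of the parental ones. The log2 fold change was 0.03 (SE 0.106), with a 95% interval of -0.18 to 0.24 computed from the SE. GRB7 was counted 408 to 475 times per library. Because both counts come from the same library, their ratio does not depend on scaling: parental libraries held 21.9 to 23.4 ERBB2 reads per GRB7 read, and LNCaP-enzaR libraries held 57.6 to 65.8.

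The ratio of ERBB2 to the genes that rose with it moved less. There were 3.53 ± 0.148 ERBB2 reads per MIEN1 read in parental and 4.30 ± 0.0746 in LNCaP-enzaR, 12.0 ± 0.784 and 15.5 ± 0.734 per PGAP3 read, and 2.01 ± 0.0592 and 2.45 ± 0.157 per ORMDL3 read (SD, n = 3 each). All 3 ratios were higher in every resistant library than in any parental one, so ERBB2 gained somewhat more than each of these genes. Without ERBB2, the summed level of the other 9 genes was 710.5 ± 16.9 CPM in parental and 774.0 ± 56.6 CPM in LNCaP-enzaR, or 1.09-fold.

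STARD3 and TCAP lie at lower coordinates than PGAP3. STARD3 (chr17:39637090-39664201, plus strand) encodes a late endosomal protein that binds cholesterol and tethers endosomes to the endoplasmic reticulum. It measured 34.9, 37.6 and 36.4 CPM in parental and 49.1, 44.2 and 39.7 CPM in LNCaP-enzaR. The groups did not overlap, but the lowest resistant library exceeded the highest parental one by little. The log2 fold change was 0.29 (SE 0.077), and 0.22 without replicate 1 of LNCaP-enzaR, in which STARD3 was highest. TCAP (chr17:39665349-39666554, plus strand) encodes telethonin, a cap of titin at the Z-disc of striated muscle. It had 17, 47 and 26 counts in the parental libraries and 45, 37 and 56 in the resistant ones. The groups overlapped, and the log2 fold change of 0.55 (SE 0.388) ranged from 0.23 without parental replicate 1 to 0.97 without parental replicate 2. PNMT, which lies between TCAP and PGAP3, had at most 3 counts in any library and was not tested.

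MED1 and CDK12 mark the proximal end. MED1 (chr17:39404285-39451272, minus strand) encodes the Mediator subunit that contacts nuclear receptors. Its level was 131.0, 129.6 and 135.8 CPM in parental LNCaP and 85.9, 95.9 and 91.6 CPM in LNCaP-enzaR, a log2 fold change of -0.54 (SE 0.058). CDK12 (chr17:39461486-39564907, plus strand), the cyclin K-dependent kinase of the elongating RNA polymerase II, starts 10213 bases away. Its level was 141.2, 135.5 and 141.1 CPM in parental and 98.8, 103.3 and 100.7 CPM in LNCaP-enzaR, a log2 fold change of -0.46 (SE 0.053). At both genes every resistant library lay below every parental one, and their summed level went from 271.4 ± 5.96 to 192.1 ± 7.23 CPM (SD, n = 3). Of the exonic bases of MED1, 8.76% are shared with a long noncoding RNA on the opposite strand.

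ORMDL3 and PSMD3 mark the distal end, past 173749 bases that hold no other gene of the set. ORMDL3 (chr17:39921041-39927601, minus strand), a protein of the endoplasmic reticulum that restrains serine palmitoyltransferase, measured 54.5, 56.6 and 56.4 CPM in parental and 144.0, 120.5 and 122.6 CPM in LNCaP-enzaR. Every resistant library was far above the parental ones, and the log2 fold change was 1.21 (SE 0.070), or 1.13 without replicate 1 of LNCaP-enzaR. PSMD3 (chr17:39980807-39997959, plus strand), a subunit of the lid of the 26S proteasome, begins 53205 bases after ORMDL3 ends. Its level was 295.0, 294.1 and 312.4 CPM in parental and 355.7, 285.2 and 286.6 CPM in LNCaP-enzaR. Replicate 1 of LNCaP-enzaR was above all parental libraries and the other two were below them. The log2 fold change was 0.04 (SE 0.076) with a 95% interval of -0.11 to 0.19, and -0.064 without that replicate.

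Levels of different genes were compared as RPKM, which divides CPM by exonic length in kilobases. That length merges all annotated exons of a gene, and is 10.3 kilobases for ERBB2 and 2.04 for MIEN1. The order between genes therefore depends on the annotation as well as on the RNA. In parental LNCaP the order was PSMD3 (60.7 RPKM), MIEN1 (15.6), MED1 (15.3), ORMDL3 (14.9), ERBB2 (10.9), CDK12 (10.7), STARD3 (6.20), PGAP3 (2.59), GRB7 (1.39) and TCAP (0.358). MIEN1 overlapped MED1 in its libraries, as MED1 did ORMDL3, and ERBB2 overlapped CDK12. In LNCaP-enzaR the order was PSMD3 (62.4 RPKM), MIEN1 (36.0), ORMDL3 (34.4), ERBB2 (30.6), MED1 (10.6), CDK12 (7.78), STARD3 (7.58), PGAP3 (5.64), GRB7 (1.41) and TCAP (0.522), with overlaps only between MIEN1 and ORMDL3 and between CDK12 and STARD3. By this length, ERBB2 was level with CDK12 in parental cells and moved above both MED1 and CDK12 in the resistant line.

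The other genes of the region were not chosen by their values, and they can be tested. Within 1000000 bases of either end of ERBB2, 45 further genes were tested, of which 13 rose and 2 fell, and their median log2 fold change was 0.34. These are 28.9% higher and 4.44% lower. Over all genes tested, 23.3% were higher and 19.5% lower, and the median was 0.01. Some weakly expressed genes, GSDMA, CCR7 and KRT224P among them, had few or no counts in parental libraries and entered the test through LNCaP-enzaR, so they could be found higher only. With at least 10 counts required in every library, 11 of 39 rose and 2 fell. Of all 16331 genes that met this requirement, 3587 rose and 3153 fell. Inside the stretch from MED1 to PSMD3, 8 further genes were tested, of which 4 rose and 0 fell, or 4 and 0 of 6 with that requirement, which leaves out GSDMA and ZPBP2 and under which RP11-387H17.4 passes. None of the 8 was lower at an unadjusted p under 0.05 in edgeR, and DESeq2 also gave 0 that fell. Outside that stretch, 9 of 37 rose (24.3%) and 2 fell (5.41%). Of the 24 window genes with a mean of at least 5 CPM, 7 rose (29.2%), 2 fell (8.33%), and the median was 0.15. Among all genes with such a mean, 17.2% rose and 20.9% fell, with a median of -0.08.

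IKZF3, which encodes the lymphoid zinc finger protein Aiolos, was the only one of the 8 inner genes with a mean of at least 5 CPM. It lies between GRB7 and ORMDL3 at chr17:39757718-39864312, and it measured 3.75, 3.84 and 3.31 CPM in parental and 7.63, 8.15 and 8.71 CPM in LNCaP-enzaR. The log2 difference was 1.17 (SE 0.106, edgeR adjusted p = 2.24e-07). Hence GRB7 stood between MIEN1 and IKZF3, which both rose, without a measured change of its own.

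The remaining inner genes were weakly expressed. PPP1R1B, the gene of the dopamine-regulated phosphatase inhibitor DARPP-32, rose from 0.243 ± 0.136 to 1.01 ± 0.268 CPM (log2 fold change 2.07, edgeR adjusted p = 2.76e-04). GSDMA, the gene of a pore-forming gasdermin, had 0 counts in the parental libraries and 24, 17 and 33 counts in LNCaP-enzaR. It entered the test through the resistant libraries, so no fold change is given. The noncoding RNA RP11-390P24.1 rose from 0.175 to 0.557 CPM (edgeR adjusted p = 8.41e-04). The changes of GSDMB (log2 fold change 0.34, edgeR adjusted p = 0.192), ZPBP2 (0.43, 0.550), AC087491.2 (0.07, 0.900) and RP11-387H17.4 (0.82, 0.0928) did not pass the test. Such levels allow little precision, since 3 counts correspond to 0.0302 to 0.0382 CPM in these libraries, a limit that covers counting error only.

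In the outer parts of the window the largest changes ran both ways. LASP1, an actin-binding protein encoded before MED1, rose from 39.4 ± 1.69 to 120.7 ± 6.40 CPM (log2 fold change 1.61, edgeR adjusted p = 2.36e-11). RARA, the retinoic acid receptor alpha, rose from 13.9 ± 0.923 to 27.4 ± 2.25 CPM (0.97, edgeR adjusted p = 9.23e-08), and GJD3, a gap junction protein, from 2.03 ± 0.281 to 8.45 ± 1.83 CPM (2.06, edgeR adjusted p = 4.37e-08). GJD3 shares 51.2% and RARA 21.4% of the exonic bases with genes on the opposite strand. CDC6, which loads the replicative helicase, fell from 139.5 ± 6.70 to 38.3 ± 3.16 CPM (-1.86, edgeR adjusted p = 1.64e-11), and TOP2A, the topoisomerase of dividing cells, fell from 197.4 ± 11.2 to 68.0 ± 9.27 CPM (-1.54, edgeR adjusted p = 9.55e-10). MED24, the Mediator subunit encoded next to PSMD3, measured 109.9 ± 2.96 and 96.4 ± 9.32 CPM (-0.19, edgeR adjusted p = 0.0244) and did not reach a 1.5-fold change.

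**Figure D2:**
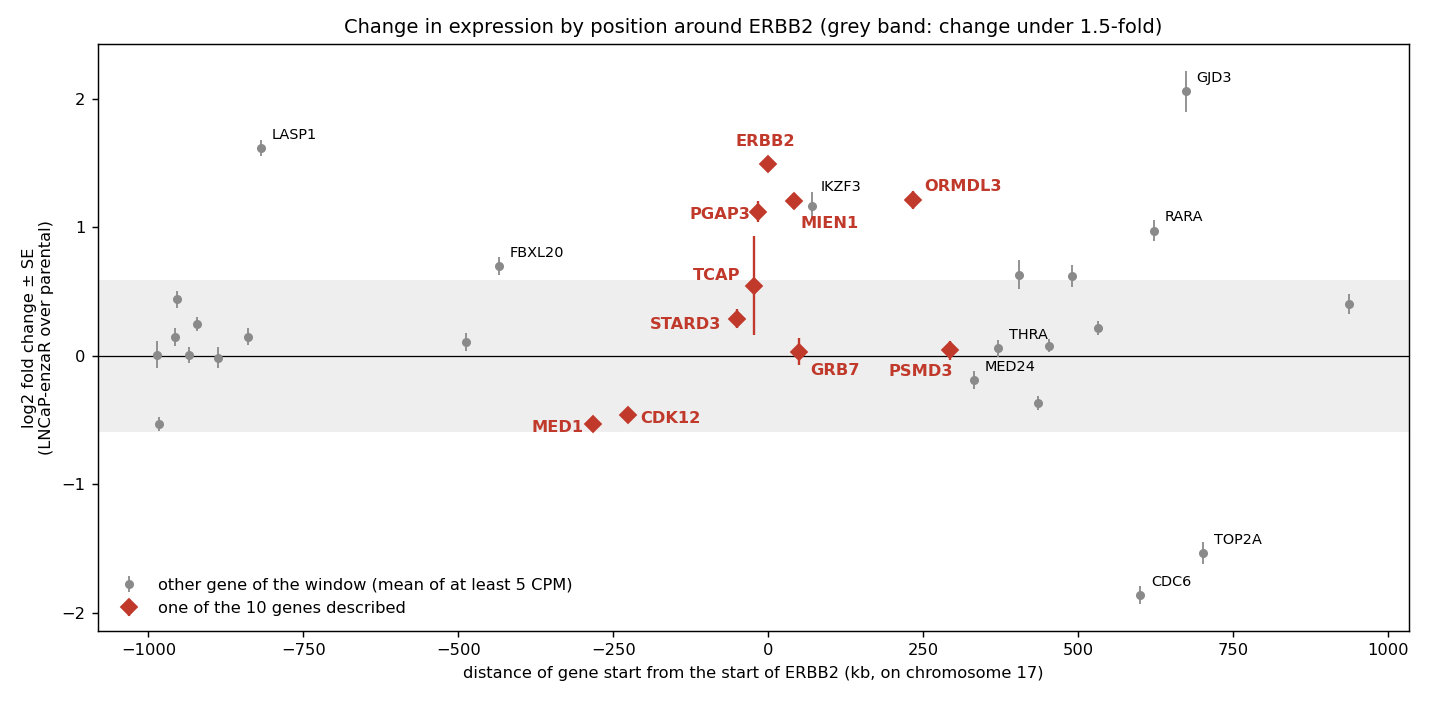
Log2 fold change of LNCaP-enzaR over parental (vertical axis) against the distance of the lower gene coordinate from that of ERBB2 in kilobases (horizontal axis). Red diamonds are the 10 genes described, grey points the 24 other genes of the window with a mean of at least 5 CPM, bars give the SE, and the grey band marks changes under 1.5-fold. PGAP3, ERBB2, MIEN1, IKZF3 and ORMDL3 lie between 1.12 and 1.49, with GRB7 near 0 among them. PSMD3 lies near 0 past ORMDL3, and MED1 and CDK12 lie at -0.54 and -0.46.

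On the whole of chromosome 17, 1165 genes were tested, 280 rose and 170 fell, with a median log2 fold change of 0.09. These are 24.0% higher and 14.6% lower, where 23.3% and 19.5% of all genes tested were. Ranked from the highest log2 fold change among the 659 genes of that chromosome with a mean of at least 5 CPM, ERBB2 was at place 33, ORMDL3 at 48, MIEN1 at 49 and PGAP3 at 57. STARD3 was at 222, PSMD3 at 322, GRB7 at 328, CDK12 at 531 and MED1 at 554. LASP1 and GJD3, in the outer parts of the window, were among the genes ranked above ERBB2.

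**Figure D3:**
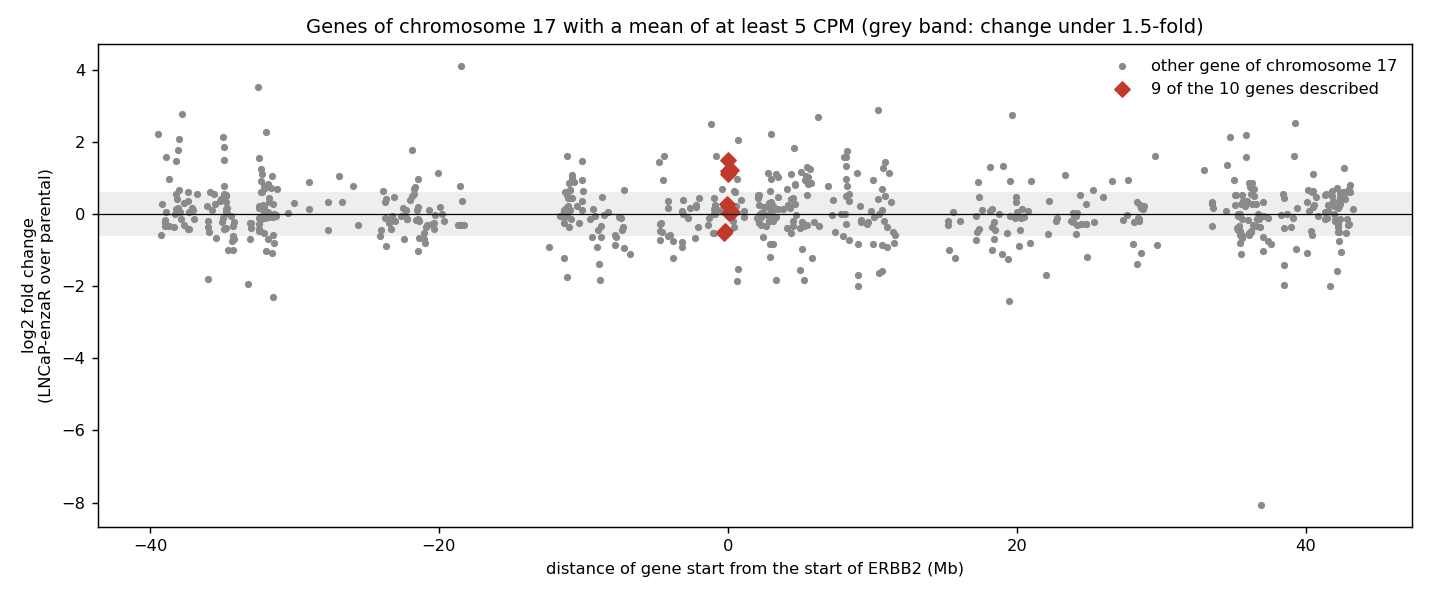
Log2 fold change of LNCaP-enzaR over parental (vertical axis) of 659 genes of chromosome 17 with a mean of at least 5 CPM, against the distance of the lower gene coordinate from that of ERBB2 in megabases (horizontal axis). Red diamonds are 9 of the 10 genes described (TCAP had a lower mean), grey points the other 650 genes, and the grey band marks changes under 1.5-fold. The 4 genes that rose lie within the spread of the chromosome, with 32 genes above ERBB2.

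The products of these genes work with proteins encoded mostly elsewhere in the genome, and 118 such genes were listed by role. MED24 lies in the window around ERBB2 and is counted both there and in its list. Of the 112 that were tested, 18 rose and 23 fell, which is 36.6% past the threshold against 42.7% of all genes tested, with a median log2 fold change of -0.11. These are 16.1% higher and 20.5% lower, where 23.3% and 19.5% of all genes tested were. With at least 10 counts required in every library, 15 of 107 rose and 21 fell. All p-values below are edgeR adjusted p over all genes tested. The lists were chosen with earlier results of these data known, and mostly their largest changes are named. These p-values are therefore a description.

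Among 16 partners and adaptors of HER2, 4 rose and 2 fell (median 0.08). ERBB4, among the 4 that rose, had 0.151, 0.066 and 0.115 CPM in parental and 0.487, 0.272 and 0.282 CPM in LNCaP-enzaR. This gene entered the test through LNCaP-enzaR, so it could be found higher only. PIK3R1, the regulatory subunit p85 alpha of PI3K, rose from 70.8 ± 0.904 to 319.3 ± 14.4 CPM (log2 fold change 2.17, edgeR adjusted p = 4.49e-13). ERBIN, a scaffold that binds HER2 at the membrane, rose from 84.8 ± 1.07 to 180.7 ± 16.8 CPM (1.09, edgeR adjusted p = 3.00e-09). CBL, a ubiquitin ligase of receptor tyrosine kinases, fell from 36.8 ± 1.85 to 22.3 ± 1.07 CPM (-0.72, edgeR adjusted p = 3.52e-07). Of 13 genes linked to the regulation of ERBB2 transcription, 10 were tested, and 4 rose and 3 fell. The 4 include ETV4, at 0.0216, 0.242 and 0.0637 CPM in parental and 1.17, 1.21 and 1.37 CPM in LNCaP-enzaR. ETV4 likewise entered the test through LNCaP-enzaR and could be found higher only. The ETS factor ELF3 rose from 15.1 ± 0.701 to 29.9 ± 1.56 CPM (0.99, edgeR adjusted p = 2.14e-08). PA2G4, which binds the HER3 receptor and represses transcription, fell from 264.8 ± 1.55 to 165.7 ± 6.13 CPM (-0.68, edgeR adjusted p = 3.46e-08), and SP1, a factor of GC boxes, from 94.3 ± 2.71 to 59.8 ± 2.81 CPM (-0.66, edgeR adjusted p = 1.86e-07).

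Both paralogs of GRB7 rose. GRB10, an adaptor of the insulin receptor, measured 98.0, 102.4 and 105.8 CPM in parental and 825.3, 843.7 and 858.9 CPM in LNCaP-enzaR, which is 3.05 on the log2 scale (SE 0.056, edgeR adjusted p = 1.48e-14). GRB14, another inhibitor of that receptor, rose from 3.18 ± 0.110 to 8.72 ± 0.804 CPM (1.45, SE 0.108, edgeR adjusted p = 2.39e-08). Per length, GRB10 stood at 10.4 RPKM in parental LNCaP and 86.0 RPKM in LNCaP-enzaR, above GRB7 (1.39 and 1.41 RPKM) in both lines.

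MED1 and CDK12 work in complexes of transcription. Of the other 32 Mediator genes listed, 4 rose (12.5%) and 6 fell (18.75%), with a median of -0.15. MED12L rose from 1.40 ± 0.183 to 11.3 ± 1.31 CPM (log2 fold change 3.01, edgeR adjusted p = 7.93e-11) and CDK19, a kinase of the Mediator kinase module, from 146.9 ± 4.09 to 298.1 ± 23.0 CPM (1.02, edgeR adjusted p = 2.68e-09). MED30, a metazoan subunit, fell from 8.84 ± 0.497 to 3.51 ± 0.345 CPM (-1.33, edgeR adjusted p = 5.99e-08). Among 8 genes of CDK12's cyclin and related transcription kinases, edgeR gave 0 that rose and 2 that fell, CCNT2 (-0.70, edgeR adjusted p = 3.43e-07) and CCNH (-0.63, edgeR adjusted p = 1.23e-06). DESeq2 also gave 0 that rose, and 3 were higher at an unadjusted p under 0.05. CCNK, the cyclin of CDK12, measured 23.8 ± 0.387 and 19.7 ± 1.94 CPM (-0.28), and the related kinase CDK13 53.5 ± 1.94 and 62.6 ± 1.44 CPM (0.23), both under a 1.5-fold change.

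The mean of PSMD3 moved by 1.03-fold. Of 21 other genes of its complex, 4 fell, or 19.0% against 19.5% of all genes tested, and 0 rose (median -0.21). DESeq2 also gave 0 that rose, and 4 were higher at an unadjusted p under 0.05 in edgeR. PSMC3, an ATPase of the base, fell from 246.3 ± 3.82 to 112.4 ± 8.44 CPM (log2 fold change -1.13, edgeR adjusted p = 6.95e-10). The deubiquitinase gene PSMD14 fell from 120.2 ± 3.29 to 61.4 ± 1.25 CPM (-0.97, edgeR adjusted p = 1.20e-09) and the scaffold gene PSMD1 from 178.5 ± 0.882 to 102.0 ± 3.11 CPM (-0.81, edgeR adjusted p = 5.34e-09).

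Neither paralog of ORMDL3 rose. ORMDL1 fell from 22.0 ± 0.421 to 12.1 ± 1.45 CPM (log2 fold change -0.87, edgeR adjusted p = 7.10e-07), and ORMDL2 measured 28.7 ± 0.461 and 27.9 ± 1.60 CPM (-0.04, edgeR adjusted p = 0.639). Of these paralogs and the serine palmitoyltransferase genes together, 1 of 7 rose (14.3%) and 2 fell (28.6%). SPTLC3, a catalytic subunit of that enzyme, rose from 3.13 ± 0.293 to 16.5 ± 1.25 CPM (2.39, edgeR adjusted p = 6.26e-11).

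Relatives and partners of STARD3 in sterol transport were likewise mixed, with 1 of 8 higher and 2 lower. NPC1, the cholesterol exporter of the lysosome, rose from 39.3 ± 1.39 to 104.3 ± 1.37 CPM (log2 fold change 1.41, edgeR adjusted p = 3.79e-11). STARD4, a soluble sterol carrier, fell from 33.2 ± 2.77 to 4.95 ± 0.895 CPM (-2.74, edgeR adjusted p = 5.77e-11). STARD3NL, the paralog of STARD3, fell from 45.7 ± 1.17 to 27.4 ± 1.59 CPM (-0.74, edgeR adjusted p = 1.80e-07). Of 5 genes of GPI anchor remodelling, which is the pathway of PGAP3, 4 were tested and 1 rose, MPPE1, from 12.7 ± 0.252 to 21.7 ± 0.377 CPM (0.78, edgeR adjusted p = 1.79e-07). Of 6 partners of TCAP at the Z-disc, 4 were tested, 1 rose and 2 fell. The one that rose was MYOZ1, a calcineurin-binding protein of the Z-disc, at 0, 0.110 and 0.127 CPM in parental and 14.1, 12.2 and 11.9 CPM in LNCaP-enzaR. It entered the test through the resistant libraries, so no fold change is given.

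**Figure D4:**
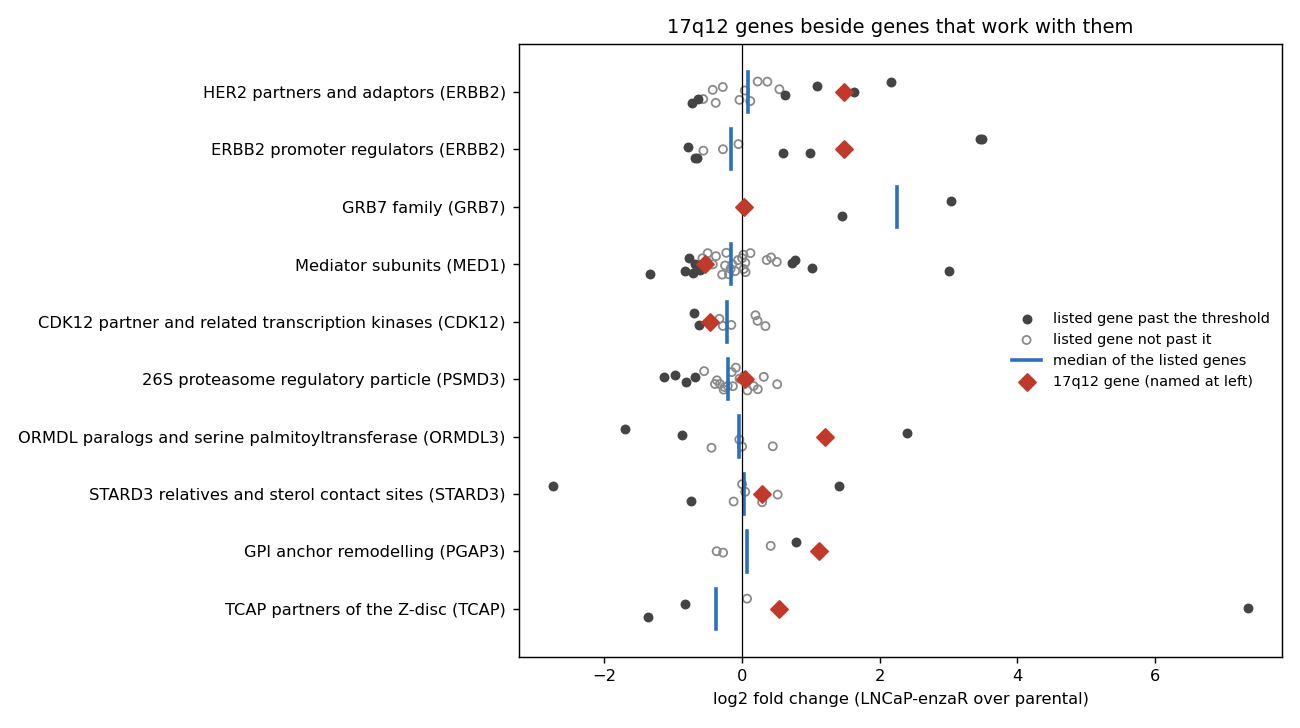
Log2 fold change of LNCaP-enzaR over parental (horizontal axis) of 112 genes in 10 lists (rows), with the 17q12 gene that each list belongs to as a red diamond. Filled points were past the threshold, open points were not, and the blue line is the median of the listed genes. ERBB2, PGAP3 and ORMDL3 stand above the medians of their lists (0.08, 0.07 and -0.04), GRB7 below both paralogs, and MED1 and CDK12 below the medians of theirs (-0.15 and -0.22).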

How the data were processed

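RNA sequencing libraries of parental LNCaP (n = 3) and LNCaP-enzaR (n = 3) were analysed, grouped by sample title. The authors trimmed reads with Cutadapt, aligned them to GRCh38.p13 with STAR and counted reads per gene with featureCounts, and they deposited raw counts per gene, not normalized. Strand setting and treatment of multiply mapped reads are not given in the sources used here. The table also had 4 empty columns. Of its genes, 99.8% were found in GENCODE v44, which gave strand, exonic length and exon overlap. Coordinates are those of the deposited table.

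The counts were fitted with edgeR 4.0.16 (R 4.3.3) as a robust quasi-likelihood model with TMM scaling and filterByExpr, which kept 19711 genes holding 99.96% of the counts. P-values were adjusted by Benjamini-Hochberg over these genes. Both limits, 0.05 for the adjusted p and 1.5 for the fold change, are those of the study's methods. The titles call the libraries biological replicates and the labels describe triplicate flasks, without saying that these came from separate cultures, so p-values measure the spread between these libraries only. The fit was tested on simulated data.

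The 10 genes and the lists were chosen with earlier results of these data known. Further genes were named by rule: every tested gene with a symbol between MED1 and PSMD3, the 5 largest changes in the rest of the window, up to 3 per list (both with a mean of at least 5 CPM), direct paralogs, CCNK and MED24. The other ErbB receptors, and some genes that entered the test through LNCaP-enzaR, were named besides. A further listed marker gene is not reported here. Alternatives were DESeq2 1.42.0, RLE size factors, library totals, upper-quartile scaling, a minimum of 10 counts in every library or no filter, the replicate number as a block and leaving out each library. A fit without mitochondrial genes was chosen after seeing the data.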

Additional observations from a re-analysis of the deposited data

How the results depend on the processing

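The count of 4 genes past the threshold, all higher, held under all 14 alternatives, and the counts over all genes, chromosome 17, the window and the lists stayed within 1.5 times their values. Of 140 log2 fold changes of the 10 genes under these alternatives, 137 kept their side. GRB7 turned from 0.03 to -0.0045 with library totals and to -0.0094 without LNCaP-enzaR replicate 2, and PSMD3 from 0.04 to -0.064 without LNCaP-enzaR replicate 1, the last with an SE of 0.038 in that fit. Over the fits without one library GRB7 ranged from -0.0094 to 0.093 and PSMD3 from -0.064 to 0.098, and upper-quartile scaling gave the highest values of both, 0.13 and 0.14. The cause was not tested. ERBB2 ranged from 1.44 to 1.59, ORMDL3 from 1.13 to 1.31, MIEN1 from 1.17 to 1.31, PGAP3 from 1.06 to 1.22, STARD3 from 0.22 to 0.39, CDK12 from -0.50 to -0.36 and MED1 from -0.57 to -0.43. Upper-quartile scaling moved the median of all genes by 0.10 on the log2 scale and gave the highest value of each of these 7 genes. Replicate numbers did not pair the libraries: deviations of libraries with the same number correlated at -0.065, -0.00041 and -0.051. A fit blocked on the replicate number called 8212 genes in place of 8425, 8174 of them shared in direction, and the log2 fold change of ERBB2 was 1.49. DESeq2 called 8321 genes, 8279 of them shared. TCAP and the weakly expressed inner genes are limited by low counts.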
